A study of Mus musculus with 24 samples.

Results

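The Sox genes encode transcription factors that bind DNA through an HMG box, a domain named after the high mobility group proteins and first recognized in SRY. The 10 members described here were taken by name from the 53465 genes of the deposited count table, with Ensembl identifiers mapped to mouse symbols: Sox2, Sox4, Sox5, Sox6, Sox7, Sox9, Sox11, Sox12, Sox15 and Sox21. All 10 were found. The rule that takes them names genes and uses no measured value, but the list was drawn up with earlier results of these data known. Another 10 Sox genes (Sox1, Sox3, Sox8, Sox10, Sox13, Sox14, Sox17, Sox18, Sox30 and Sry) were kept as a comparison list.

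Sox factors bend the DNA they bind and act together with partner factors, and they are grouped by the likeness of their HMG boxes. Sox2 and Sox21 belong to group B, in which Sox2 mainly activates and Sox21 mainly represses genes of stem and neural progenitor cells. Group C (Sox4, Sox11, Sox12) acts in progenitors of many tissues, group D (Sox5, Sox6) lacks an activation domain of its own and assists Sox9, a group E factor, in cartilage, Sox7 is a group F factor of endothelial and endodermal cells, and Sox15 is the one member of group G. In squamous epithelia Sox2 marks basal progenitor cells and is often overexpressed in squamous carcinoma.

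Bulk RNA was sequenced from 24 subcutaneous tumors of 8 BURP lines, 3 tumors a line. Each line descends from 1 bladder carcinoma that arose in a C57BL/6NTac mouse given 0.1% N-butyl-N-(4-hydroxybutyl)-nitrosamine (BBN), a bladder carcinogen, in its drinking water from 8 weeks of age for up to 36 weeks, and it was passed as tumor pieces through untreated hosts of the same strain and sex. The study classed 6 lines as basal/squamous (Ba/Sq), 3 of them from females (BURP-25BaSq, BURP-24BaSq, BURP-21BaSq) and 3 from males (BURP-18BaSq, BURP-17BaSq, BURP-12BaSq). The male line BURP-16SR was classed as stroma-rich and the male line BURP-19NE as neuroendocrine-like, so for these subtypes the line and the subtype cannot be told apart, and no normal bladder was sequenced. In the study's classification, 1 of the 3 BURP-16SR tumors correlated highly with the neuroendocrine-like class rather than the stroma-rich one. The tumors of a line are separate host mice carrying 1 donor's tumor. Where each line is a group of its own, a p-value over tumors therefore measures the spread between passages and hosts, not between donors. Where Ba/Sq tumors of several lines form 1 group, the fit has no term for line. Its spread then mixes lines and tumors, and tumors of 1 donor count as independent samples. Host cells are part of every bulk sample, and fewer cells of a type and less RNA per cell cannot be told apart.

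The summed counts ran from 9295708 to 25370320 per tumor (median 17693147), and 3 counts, taken as the detection floor, equalled 0.110 to 1.28 CPM, the count of a gene scaled to the total count of its tumor. The highest floor belonged to BURP-25BaSq replicate 2, in which 62.8% of counts fell on 2 ribosomal loci against 5.80% to 18.95% in the other tumors. BURP-25BaSq replicate 3 correlated more closely with BURP-21BaSq (r = 0.920) than with its own line (r = 0.606) over the 500 most variable genes, the one tumor of 24 nearer to another line. The BURP-25BaSq line means named for a member are therefore given with and without replicate 3. Levels are CPM with totals adjusted by the trimmed mean of M values (TMM) unless named otherwise.

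The labelled subtypes were checked against marker genes. The 10 basal and squamous markers summed to 10389 to 23878 CPM in the Ba/Sq tumors and to 7.22 to 36.7 CPM in the other 6 tumors, and Krt5, a basal keratin, ran from 2946 to 6214 CPM in Ba/Sq and was at most 0.343 CPM elsewhere. Of 8 neuroendocrine markers, 2 were above 1 CPM in every BURP-19NE tumor, while Insm1 and Neurod1 were at 0 there, Chga was at most 0.136 CPM and Syp was 0.255 to 0.545 CPM. Insm1, Neurod1, Chga and Syp were thus near 0 in the line labelled neuroendocrine-like. In the test of BURP-19NE against Ba/Sq, 2 of the 5 neuroendocrine markers tested were called higher and none lower. Ncam1 was among them (log2 fold change 2.96 ± 0.62, edgeR adjusted p = 0.000971). The study reported high synaptophysin protein, the product of Syp, in this line by staining. Fibroblast markers summed to 631 to 20976 CPM in BURP-16SR and to 241 to 10407 CPM in Ba/Sq tumors, ranges that overlap. In the test of BURP-16SR against Ba/Sq, 5 of these 10 markers were called higher and none lower, among them Col1a1 (log2 fold change 2.67 ± 0.77, edgeR adjusted p = 0.0147) and Thy1 (2.38 ± 0.56, adjusted p = 0.00374), as were 3 of 6 smooth muscle markers.

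The HMG boxes show how close the members are to one another, which bears on how reads were assigned to them. Over 210 bases of the box, Sox4 and Sox11 were 90.952% identical, Sox2 and Sox21 88.095%, Sox4 and Sox12 85.714%, Sox11 and Sox12 84.762% and Sox5 and Sox6 82.381%. The longest run shared exactly by any pair of transcripts was 48 bases, in Sox4 and Sox11. The same 90-base stretch of the box is printed for group C, 5′ to 3′ from the GENCODE M21 transcripts (GRCm38), with capitals at the 14 positions where the 3 genes are not all the same and lower case at the 76 they share.
Sox4: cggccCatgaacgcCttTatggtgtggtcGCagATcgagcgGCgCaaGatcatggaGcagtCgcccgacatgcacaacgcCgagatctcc
Sox11: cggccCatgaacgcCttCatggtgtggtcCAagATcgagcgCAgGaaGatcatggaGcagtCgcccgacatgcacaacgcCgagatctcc
Sox12: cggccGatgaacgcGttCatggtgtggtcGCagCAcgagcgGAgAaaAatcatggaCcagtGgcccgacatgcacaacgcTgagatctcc
For group D the same stretch is printed with capitals at the 13 positions where Sox5 and Sox6 differ, beside 77 that they share.
Sox5: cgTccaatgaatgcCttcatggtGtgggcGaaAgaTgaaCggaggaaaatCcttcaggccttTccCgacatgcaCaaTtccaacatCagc
Sox6: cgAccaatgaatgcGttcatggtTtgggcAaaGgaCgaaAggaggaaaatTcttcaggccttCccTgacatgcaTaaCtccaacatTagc
How many reads fell in the shared runs was not measured.

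In GRCm38, Sox2 lies at chr3:34650405-34652461, Sox4 at chr13:28948919-28953713, Sox5 at chr6:143828425-144781977, Sox6 at chr7:115470872-116038796 and Sox7 at chr14:63943673-63950732. Sox9 lies at chr11:112782224-112787760, Sox11 at chr12:27334264-27342574, Sox12 at chr2:152393611-152398063, Sox15 at chr11:69655314-69656727 and Sox21 at chr14:118233232-118237030. Sox7, Sox9, Sox11 and Sox12 overlap no other annotated gene. Sox2 lies inside Sox2ot on the same strand, Sox4 overlaps the noncoding Gm26735 and Sox15 overlaps Mpdu1 on the opposite strand, and Sox5, Sox6 and Sox21 overlap noncoding genes. Whether the counting used strand is not given in the sources used here, so these 6 values could hold reads of the partner. Gm26735 reached 19.9 CPM against 364 CPM for Sox4, and Sox2ot reached 10.5 CPM. Mpdu1 ran from 7.94 to 29.5 CPM in every tumor, including those in which Sox15 was near 0.

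RefSeq promoter windows (250 bases before to 50 after the start, GRCm38.p6) were found for 8 members, 13 windows in all, of which Sox6 has 6; none was matched for Sox7 and Sox9. The windows of Sox15 and Sox11 are printed because these members differed most between lines. Capitals mark matches, on either strand, to 4 short motifs: the SOX core ACAAT, the GC box GGGCGG, the CCAAT box CCAAT and the TATA box TATAAA.
Sox15, chr11:69654787-69655086, plus strand: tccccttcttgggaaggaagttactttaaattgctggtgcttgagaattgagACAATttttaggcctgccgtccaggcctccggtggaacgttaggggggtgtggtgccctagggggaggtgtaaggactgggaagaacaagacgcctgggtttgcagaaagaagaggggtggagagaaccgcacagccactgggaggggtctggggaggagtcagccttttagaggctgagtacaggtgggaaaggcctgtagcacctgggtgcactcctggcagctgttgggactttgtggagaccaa
Sox11, chr12:27342669-27342968, minus strand: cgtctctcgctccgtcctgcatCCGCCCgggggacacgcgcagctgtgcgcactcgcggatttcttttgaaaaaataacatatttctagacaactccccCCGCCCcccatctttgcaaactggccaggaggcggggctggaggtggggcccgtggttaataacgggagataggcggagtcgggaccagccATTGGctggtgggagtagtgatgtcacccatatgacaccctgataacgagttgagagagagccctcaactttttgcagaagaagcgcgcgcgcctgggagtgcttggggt
The Sox15 window held 1 SOX core match and none of the other motifs, and the Sox11 window held 2 GC boxes and 1 CCAAT box. Among the 13 member windows, 5 held a SOX core, 4 a GC box, 7 a CCAAT box and 2 a TATA box. Among all 32851 windows of the same length the shares were 31.025%, 35.658%, 37.408% and 13.616%, so such matches are common everywhere and describe the letters only.

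Per length, in RPKM (CPM divided by the exonic length in kilobases), Sox4 and Sox9 were the most abundant members in these tumors. Mean RPKM over the 24 tumors was 31.7 for Sox4, 21.3 for Sox9, 14.8 for Sox2, 10.3 for Sox21, 10.2 for Sox15, 7.93 for Sox7, 5.04 for Sox11, 2.82 for Sox12, 1.54 for Sox6 and 1.51 for Sox5. The 10 genes summed to 67.0 to 178 RPKM per tumor. Sox4 was the leading member in 13 tumors, with 23.3% to 66.4% of the sum, and Sox9 in 9 tumors, with 22.3% to 48.7%. Sox2 led in BURP-25BaSq replicate 2 (41.02%) and Sox11 in BURP-24BaSq replicate 2 (18.1%). In BURP-19NE, Sox4 alone was 48.1% to 66.4% of the sum.

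**Figure D1:**
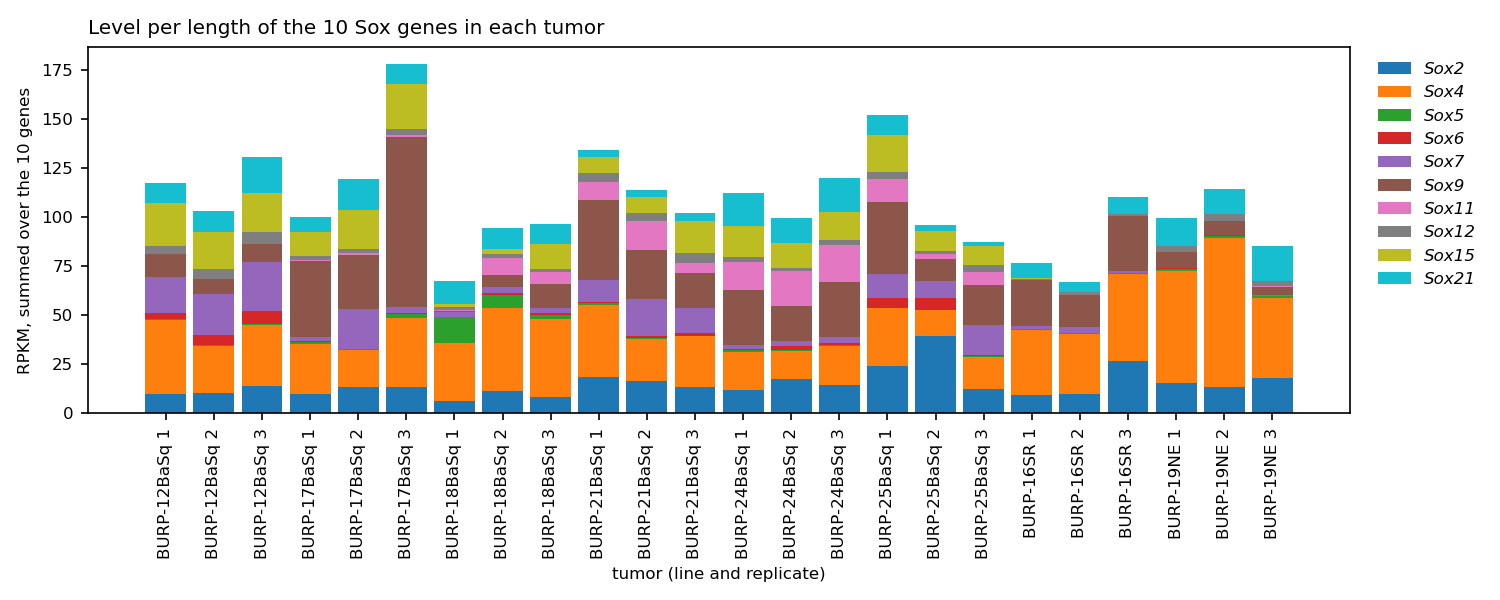
Stacked bars of RPKM (vertical axis, linear from 0) for the 10 Sox genes in each of the 24 tumors (horizontal axis, line and replicate). The sums run from 67.0 to 178 RPKM, Sox4 and Sox9 lead in 22 of the tumors, and the Sox4 share is highest in BURP-19NE.

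The members fell into a set present in every tumor and a set that ranged over orders of magnitude. Sox2, Sox4, Sox9, Sox12 and Sox21 were above 1 CPM in all 24 tumors, Sox5 in 23, Sox7 in 22, Sox6 in 19, Sox15 in 18 and Sox11 in 17. The highest line mean exceeded the lowest 557-fold for Sox11, 187-fold for Sox15, 142-fold for Sox6, 79.5-fold for Sox7 and 34.4-fold for Sox5. The same ratio was 8.05 for Sox9, 4.97 for Sox12, 4.08 for Sox21, 3.29 for Sox4 and 2.90 for Sox2. Without BURP-25BaSq replicate 3 it was 111 for Sox5, 160 for Sox6 and 3.65 for Sox2, and it was the same for the other members. A test of any difference among the 8 lines (edgeR's quasi-likelihood F test, Benjamini-Hochberg adjustment) called 9 of the 10 members, against 76.7% of all genes, which is near the background and not a result about these genes. Sox2 was the exception (adjusted p = 0.0546), and leaving out BURP-16SR replicate 3 (adjusted p = 0.00726) or BURP-25BaSq replicate 3 (adjusted p = 0.00872) brought it under the threshold.

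**Figure D2:**
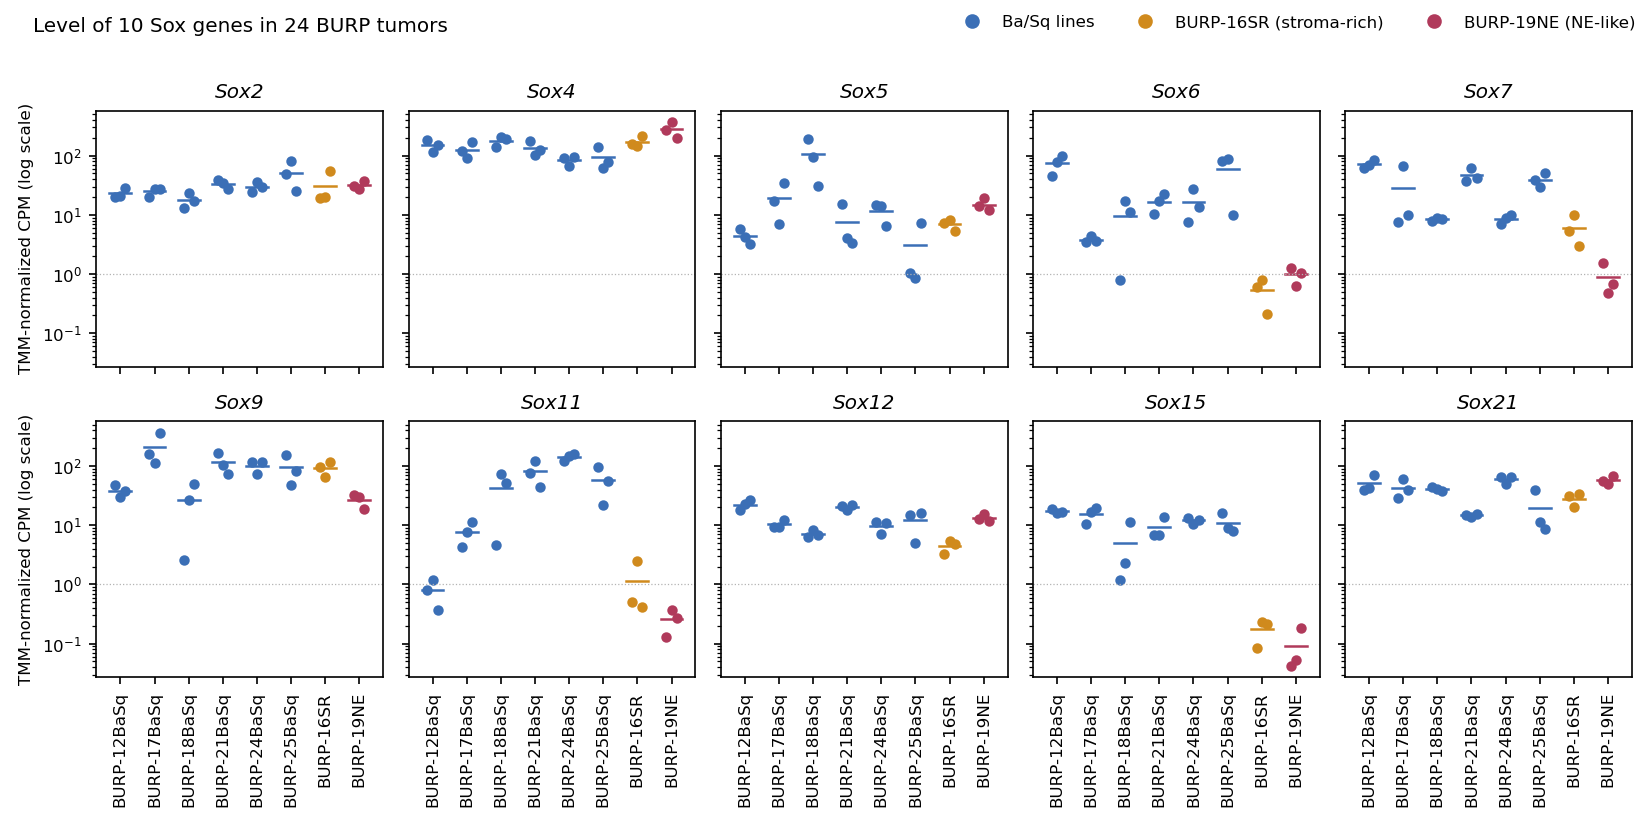
TMM-scaled CPM (log axis) of each Sox gene in the 8 BURP lines, 1 point per tumor and a bar at the line mean, colored by subtype, with a dotted line at 1 CPM. Sox2 and Sox4 stay within 1 order of magnitude, Sox15 and Sox6 are lowest in BURP-16SR and BURP-19NE, and Sox11 is lowest in those lines and BURP-12BaSq.

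A gene was called between subtypes at an adjusted p under 0.05 over all genes tested and a fold above 2. In BURP-19NE against the 18 Ba/Sq tumors, 5 of the 10 members were called, 1 higher and 4 lower, against 24.3% of the 20995 genes tested (9.33% higher, 15% lower). The median log2 fold change was -1.31 over the members and -0.14 over all genes. In BURP-16SR against Ba/Sq, 4 of the 10 were called, all lower, against 19.2% of the 21028 genes tested (10.5% higher, 8.62% lower), with a median of -1.70 beside -0.03 over all genes. Between BURP-16SR and BURP-19NE, 8 members had counts enough to be tested and 4 were called, 2 higher and 2 lower in BURP-16SR, against 23.6% of the 17556 genes tested (14.8% higher, 8.86% lower), with medians of -0.71 and 0.06. The comparisons with Ba/Sq share their 18 Ba/Sq tumors. Sox6, Sox11 and Sox15 were called lower in both lines.

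**Figure D3:**
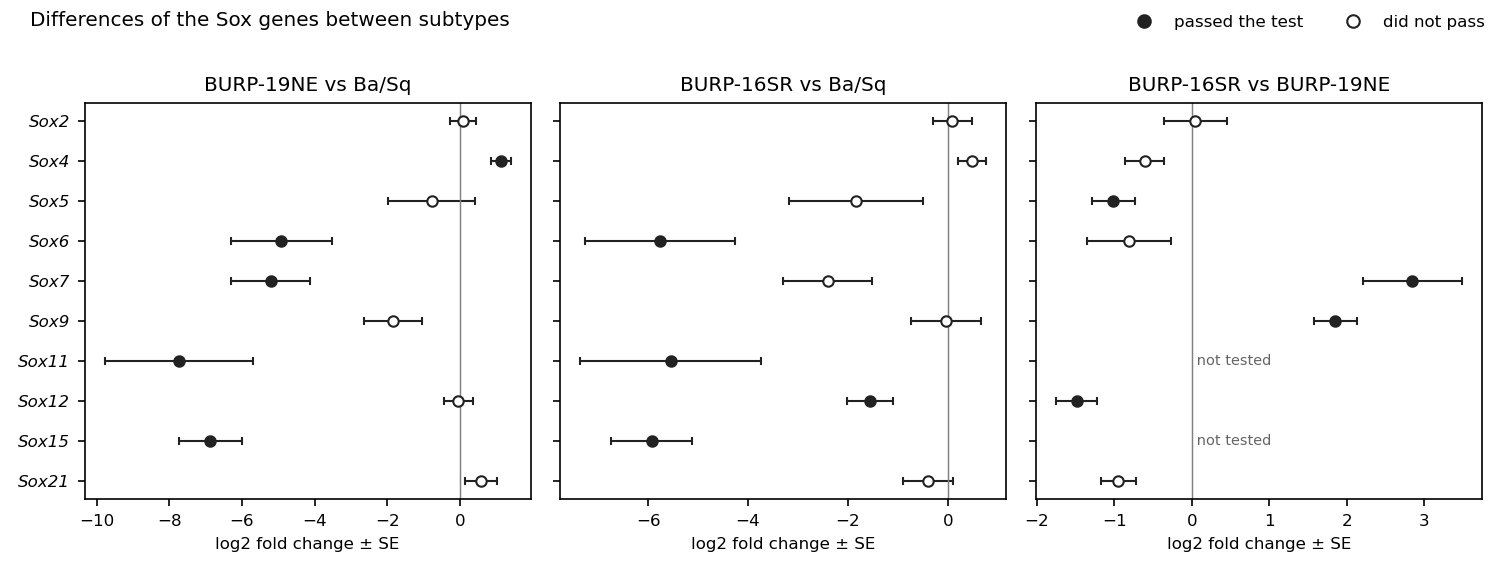
Log2 fold change with its standard error (horizontal axis) for each Sox gene in the 3 comparisons between subtypes, filled points for genes that passed the test and open points for those that did not. Sox15, Sox6 and Sox11 lie far below 0 in both lines against Ba/Sq, Sox4 passed on the high side in BURP-19NE, and Sox2 lies near 0 in all 3.

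Sox15, a single-member group whose HMG box is closest to those of group B, separated the subtypes most cleanly. In the Ba/Sq tumors it ran from 1.18 to 19.7 CPM with a median of 11.7. In BURP-16SR it was 0.0857, 0.235 and 0.210 CPM (1, 3 and 3 counts), and in BURP-19NE it was 0.0424, 0.0526 and 0.182 CPM (1, 1 and 4 counts). Every Ba/Sq tumor was above every tumor of the other lines. The Ba/Sq mean was 64.7-fold above the pooled BURP-16SR level (95% exact Poisson interval 31.4 to 161, counting error only) and 126-fold above the BURP-19NE level (57.8 to 343). The fitted log2 fold change was -5.93 ± 0.81 (SE) in BURP-16SR (adjusted p = 1.34e-05) and -6.87 ± 0.86 in BURP-19NE (adjusted p = 3.34e-06), by edgeR's quasi-likelihood test. Both calls held in every alternative that tested the gene. Between BURP-16SR and BURP-19NE the counts were too low for a test.

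Among the Ba/Sq lines Sox15 was the one member not called by the F test over lines (adjusted p = 0.123), where 50.5% of all genes were called. BURP-12BaSq held 18.7, 16.1 and 16.99 CPM, BURP-17BaSq 10.4, 17.05 and 19.7, and BURP-24BaSq 13.5, 10.6 and 12.1. BURP-25BaSq held 16.01, 8.93 and 8.10 CPM, BURP-21BaSq 6.73, 6.77 and 14.0, and BURP-18BaSq 1.18, 2.26 and 11.3. BURP-18BaSq replicate 3 lay within the range of the other lines while its other 2 tumors lay below all of them. Without that tumor the F test over lines passed (adjusted p = 0.00146), and BURP-18BaSq was lower than the other Ba/Sq lines by a log2 fold change of -2.87 (adjusted p = 0.000839), beside -1.40 ± 0.49 (adjusted p = 0.0577) with all tumors. With all tumors it passed by DESeq2 (adjusted p = 0.0163) and with the 24 tumors in 1 fit (0.031).

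Sox6, a group D factor of cartilage, muscle and red cell precursors, was, with Sox15, the member whose BURP-16SR range lay wholly below the Ba/Sq range. It was 0.600, 0.782 and 0.210 CPM in BURP-16SR and 1.27, 0.631 and 1.04 CPM in BURP-19NE. In the 18 Ba/Sq tumors it ran from 0.784 to 100.3 CPM with a median of 15.1. The lowest Ba/Sq tumor, BURP-18BaSq replicate 1, fell within the BURP-19NE range and just above the BURP-16SR range. The log2 fold change was -5.76 ± 1.51 in BURP-16SR (adjusted p = 0.00796) and -4.92 ± 1.39 in BURP-19NE (adjusted p = 0.00963). The latter call was lost without BURP-19NE replicate 2 (-4.73, adjusted p = 0.0556). On summed counts, the Ba/Sq mean was 58.4-fold above BURP-16SR (37.8 to 95.6) and 29.98-fold above BURP-19NE (23.5 to 38.8).

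Sox6 also spread widely among the Ba/Sq lines. BURP-12BaSq held 45.7, 79.5 and 100.3 CPM, and BURP-25BaSq held 80.9, 88.5 and 9.94 CPM. The low BURP-25BaSq tumor was replicate 3, and without it the line mean rose from 59.8 to 84.7 CPM, above the 75.2 ± 27.6 CPM (SD, n = 3) of BURP-12BaSq. BURP-21BaSq (16.6 ± 6.19 CPM), BURP-24BaSq (16.2 ± 10.2 CPM) and BURP-18BaSq (9.54 ± 8.14 CPM) overlapped one another. BURP-17BaSq was lowest of the 6 in mean, at 3.44, 4.30 and 3.62 CPM, and its range did not overlap that of BURP-19NE, the next line down. The F test over the 6 lines passed (adjusted p = 0.00412). Tested singly against the other Ba/Sq lines, neither BURP-12BaSq (log2 fold change 1.86 ± 0.80, adjusted p = 0.158) nor BURP-17BaSq (-3.24 ± 1.10, adjusted p = 0.157) passed. BURP-17BaSq passed with DESeq2 (adjusted p = 0.00506), and with all 24 tumors in 1 fit both BURP-12BaSq (0.00142) and BURP-17BaSq (0.0123) did.

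Sox5, the other group D factor, was highest in BURP-18BaSq. BURP-18BaSq held 191, 94.9 and 31.2 CPM, against 0.851 to 34.4 CPM in the other 15 Ba/Sq tumors. Only BURP-17BaSq replicate 3, at 34.4 CPM, exceeded the lowest BURP-18BaSq tumor. Against the other Ba/Sq lines, BURP-18BaSq had a log2 fold change of 3.55 ± 0.62 (edgeR adjusted p = 0.000892), the 1 member called there against 10.1% of 20523 genes, and the call held in all 24 alternatives that tested it. BURP-17BaSq held 17.3, 7.12 and 34.4 CPM, BURP-24BaSq 14.6, 13.8 and 6.49, and BURP-21BaSq 15.2, 4.13 and 3.37. BURP-12BaSq held 5.80, 4.28 and 3.16 CPM, and BURP-25BaSq 1.06, 0.851 and 7.32 CPM. The tumor at 7.32 CPM was again replicate 3, and the BURP-25BaSq mean was 0.953 CPM without it and 3.07 CPM with it.

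Against the Ba/Sq tumors as a whole, Sox5 did not pass in BURP-19NE (13.9, 18.9 and 11.9 CPM, log2 fold change -0.78 ± 1.21, adjusted p = 0.65) or in BURP-16SR (7.20, 8.21 and 5.40 CPM, -1.84 ± 1.34, adjusted p = 0.334). The Ba/Sq median was 7.22 CPM, and the mean of 25.3 ± 46.9 CPM (SD, n = 18) included BURP-18BaSq at 106 ± 80.6 CPM (SD, n = 3). Between the other subtypes the ranges did not overlap, and BURP-16SR was lower by a log2 fold change of -1.01 ± 0.28 (adjusted p = 0.0316). This value sits at the fold threshold, and the call was lost without BURP-16SR replicate 1 or 3, without BURP-19NE replicate 1 or 2, and with all 24 tumors in 1 fit (adjusted p = 0.257).

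Sox7, a group F factor, was lowest in BURP-19NE. It was 1.53, 0.473 and 0.681 CPM there (36, 9 and 15 counts) and 6.91 to 82.7 CPM in Ba/Sq, with a median of 33.2. No Ba/Sq tumor reached the BURP-19NE range. The log2 fold change was -5.21 ± 1.09 (adjusted p = 0.00095), and on summed counts the Ba/Sq mean was 36.3-fold higher (28.2 to 47.6). BURP-16SR, at 5.31, 10.01 and 2.95 CPM, overlapped the low Ba/Sq tumors and missed the threshold (-2.41 ± 0.90, adjusted p = 0.0527). It passed when any 1 of 8 Ba/Sq tumors of BURP-17BaSq, BURP-18BaSq or BURP-24BaSq was left out, with DESeq2 (adjusted p = 0.00469) and with all 24 tumors in 1 fit (adjusted p = 0.00389). BURP-16SR exceeded BURP-19NE in every tumor by 2.85 ± 0.64 (adjusted p = 0.0161), which was not called without BURP-19NE replicate 2 (2.54, adjusted p = 0.0632) or replicate 3 (2.67, adjusted p = 0.0683).

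Within Ba/Sq, Sox7 divided the lines. BURP-12BaSq held 62.0, 68.5 and 82.7 CPM, BURP-21BaSq 37.4, 61.5 and 42.6, and BURP-25BaSq 38.7, 28.9 and 50.3. BURP-18BaSq held 7.84, 8.69 and 8.66 CPM and BURP-24BaSq 6.91, 8.81 and 9.80. The range of BURP-12BaSq stood clear of the next line in order, and the low lines overlapped each other and BURP-16SR. BURP-17BaSq held 7.58, 65.8 and 10.1 CPM, so its replicate 2 lay among the high lines and its other tumors among the low ones. The F test over the 6 lines passed (adjusted p = 0.00267), while no single line passed against the others: the log2 fold change was 1.45 ± 0.62 for BURP-12BaSq (adjusted p = 0.155), -2.20 ± 0.79 for BURP-18BaSq (adjusted p = 0.0636) and -2.23 ± 0.78 for BURP-24BaSq (adjusted p = 0.134). With DESeq2, BURP-18BaSq (adjusted p = 0.00786) and BURP-24BaSq (0.0144) passed, and with all 24 tumors in 1 fit BURP-12BaSq (0.00324), BURP-18BaSq (0.0103) and BURP-24BaSq (0.0155) passed.

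Because Sox7 is known from endothelial cells, it was set beside 12 endothelial markers that leave out the group F genes Sox17 and Sox18. The markers summed to 62.5, 93.0 and 74.1 CPM in BURP-12BaSq, where Sox7 was highest, and to 315, 503 and 424 CPM in BURP-16SR, where it was low. In BURP-17BaSq they summed to 545, 50.2 and 208 CPM, and the tumor with 50.2 CPM was the one with high Sox7. Over the 24 tumors, log2 Sox7 had a Pearson r of -0.144 with the log2 marker sum (Spearman rho -0.192), against 0.948 (0.955) for Sox18 and 0.855 (0.762) for Sox17. Over the 18 Ba/Sq tumors the Pearson r was -0.261, 0.939 and 0.781. These are descriptions over tumors that share donors by threes. In BURP-16SR against Ba/Sq, 9 of the 14 endothelial markers (Sox17 and Sox18 included) were called higher and none lower. The level of Sox7 thus did not follow the endothelial markers across tumors, and which cells held it was not measured.

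**Figure D4:**
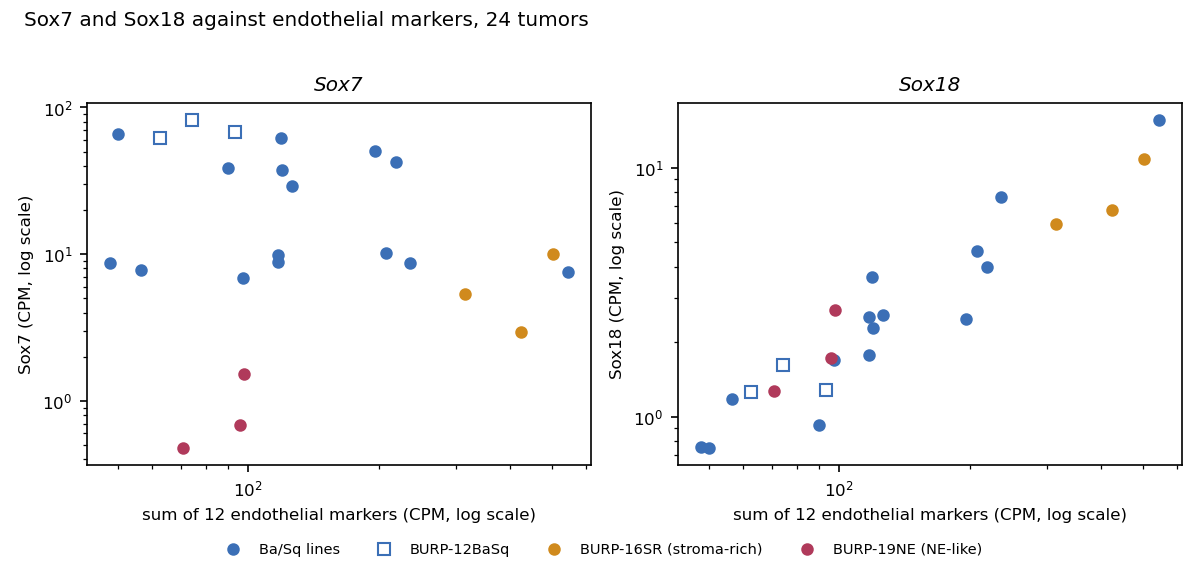
Sox7 (left) and Sox18 (right) in CPM against the sum of 12 endothelial markers in CPM, all axes log, 1 point per tumor, colored by subtype with BURP-12BaSq as open squares. Sox18 rises with the markers (r = 0.948) and Sox7 does not (r = -0.144, n = 24).

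Sox11, a group C factor of neural and mesenchymal progenitors, had the widest range of the 10. BURP-24BaSq held 119.6, 149.5 and 159 CPM, BURP-21BaSq 77.3, 122 and 44.9, and BURP-25BaSq 97.3, 21.7 and 56.5. BURP-18BaSq held 4.57, 72.2 and 51.2 CPM and BURP-17BaSq 4.37, 7.70 and 11.4. At the other end stood BURP-12BaSq with 0.811, 1.19 and 0.367 CPM, BURP-16SR with 0.514, 2.50 and 0.421 and BURP-19NE with 0.127, 0.368 and 0.272. A gap therefore ran between the 5 higher Ba/Sq lines, all at or above 4.37 CPM, and the last 3 lines, all at or below 2.50 CPM, whose ranges overlapped in turn.

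Against Ba/Sq the log2 fold change of Sox11 was -7.75 ± 2.04 in BURP-19NE (adjusted p = 0.0058) and -5.54 ± 1.81 in BURP-16SR (adjusted p = 0.0288). BURP-12BaSq, a Ba/Sq line, overlapped both, so neither group stood clear of Ba/Sq. The BURP-19NE call held in every alternative that tested it, and the BURP-16SR call was lost without BURP-16SR replicate 1 (adjusted p = 0.119), replicate 2 (0.0565) or replicate 3 (0.108). BURP-12BaSq itself lay below all 15 other Ba/Sq tumors, by -6.36 ± 1.32 (edgeR adjusted p = 0.00742), the 1 member called there against 4.59% of genes. That call also failed when any 1 BURP-12BaSq tumor was left out (adjusted p = 0.0523, 0.0522 and 0.0758), with the fold change at -6.01 or below. On summed counts the other Ba/Sq tumors were 86.1-fold above BURP-12BaSq (66.7 to 113), and the Ba/Sq mean was 225-fold above BURP-19NE (138 to 393) and 49.0-fold above BURP-16SR (36.5 to 67.4). The F statistic over the 6 Ba/Sq lines was the highest of the 10 members (17.015, adjusted p = 0.000331).

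Sox4, the most abundant member and a group C factor linked to epithelial-mesenchymal transition, was the 1 member called higher in BURP-19NE. It was 276, 364 and 196 CPM there and 62.9 to 204 CPM in Ba/Sq, with a median of 122. BURP-19NE replicate 3 fell below the highest Ba/Sq tumor, BURP-18BaSq replicate 2, and the other BURP-19NE tumors were above all 18. The log2 fold change was 1.13 ± 0.27 (adjusted p = 0.00327). Without BURP-19NE replicate 2 it was 0.85 (adjusted p = 0.0785) and not called. In BURP-16SR Sox4 was 158, 146 and 214 CPM (0.48 ± 0.28 against Ba/Sq, adjusted p = 0.223).

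Among the Ba/Sq lines Sox4 ran in order from BURP-18BaSq (178 ± 33.0 CPM) through BURP-12BaSq (148.2 ± 32.7), BURP-21BaSq (134 ± 37.0), BURP-17BaSq (126 ± 39.1) and BURP-25BaSq (94.4 ± 41.6, and 102.3 without replicate 3) to BURP-24BaSq (84.7 ± 16.1). Each neighbour in that order overlapped the next. The F test over lines was at the threshold (adjusted p = 0.0496) and was lost in 16 of 24 alternatives. Against the other Ba/Sq lines, neither BURP-18BaSq (log2 fold change 0.62 ± 0.27, adjusted p = 0.124) nor BURP-24BaSq (-0.73 ± 0.29, adjusted p = 0.194) was called.

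Sox12, the least abundant group C member per length, was lowest in BURP-16SR. It was 3.26, 5.47 and 4.77 CPM there, 12.7, 15.7 and 11.8 CPM in BURP-19NE, and 5.10 to 26.2 CPM in Ba/Sq with a median of 11.9. BURP-16SR replicate 2 exceeded only BURP-25BaSq replicate 2, the tumor with the high ribosomal share. The log2 fold change was -1.56 ± 0.46 against Ba/Sq (adjusted p = 0.0154) and -1.49 ± 0.27 against BURP-19NE (adjusted p = 0.00762). The call against Ba/Sq was lost without BURP-16SR replicate 1 (adjusted p = 0.0959) or replicate 3 (0.0513). BURP-19NE did not differ detectably from Ba/Sq (-0.04 ± 0.39, adjusted p = 0.954).

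BURP-12BaSq (18.3, 22.5 and 26.2 CPM) and BURP-21BaSq (21.5, 18.4 and 21.7 CPM) held the most Sox12, and their ranges did not overlap that of BURP-19NE, the next line in order of the mean. BURP-18BaSq was lowest in mean of the Ba/Sq lines, at 6.40, 8.36 and 6.74 CPM. The F test over the 6 lines passed (adjusted p = 0.00283), and single lines did not: BURP-12BaSq differed from the rest by 0.91 ± 0.34 (adjusted p = 0.111) and BURP-18BaSq by -1.05 ± 0.40 (adjusted p = 0.0784). BURP-18BaSq passed with DESeq2 (adjusted p = 0.0347) and BURP-12BaSq with all 24 tumors in 1 fit (0.00261). The 3 group C genes therefore had different orders over the lines, with Sox4 highest in BURP-19NE, Sox11 in BURP-24BaSq and Sox12 in BURP-12BaSq.

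Sox9, a group E factor of cartilage and of progenitors in many epithelia, was highest in BURP-17BaSq at 159.9, 114 and 357 CPM. BURP-21BaSq held 167, 105 and 72.7 CPM, BURP-24BaSq 116, 73.1 and 116, and BURP-25BaSq 154, 47.2 and 83.7. BURP-16SR lay among them at 96.5, 65.7 and 115 CPM. The lower lines were BURP-12BaSq with 47.5, 30.6 and 37.7 CPM, BURP-19NE with 32.9, 29.6 and 18.7 and BURP-18BaSq with 2.61, 26.2 and 49.6. The ranges broke once in that order, between BURP-16SR and BURP-12BaSq.

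Sox9 in BURP-19NE was lower than in Ba/Sq by -1.84 ± 0.81, which missed the threshold (adjusted p = 0.0836), passed with DESeq2 (-1.86, adjusted p = 0.0191) and passed without BURP-18BaSq replicate 1 (-1.95, adjusted p = 0.0259), the tumor at 2.61 CPM. BURP-16SR did not differ detectably from Ba/Sq (-0.03 ± 0.70, adjusted p = 0.98), and it exceeded BURP-19NE in every tumor by 1.85 ± 0.28 (adjusted p = 0.00439), a call kept in all 13 alternatives. Within Ba/Sq the F test passed (adjusted p = 0.0214) and was lost without BURP-17BaSq replicate 3 (0.0593). Against the other Ba/Sq lines, BURP-17BaSq was at 1.47 ± 0.59 (adjusted p = 0.237) and BURP-18BaSq at -2.10 ± 0.74 (adjusted p = 0.061). BURP-18BaSq passed with DESeq2 (adjusted p = 0.00787), and both lines passed with all 24 tumors in 1 fit (0.0129 and 0.0137).

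Sox2, the group B activator, had the lowest ratio of highest to lowest line mean with all tumors (2.90), but not without BURP-25BaSq replicate 3 (3.65, against 3.29 for Sox4). Between single tumors its ratio was 6.19, against 5.78 for Sox4. It was 31.0, 27.3 and 36.8 CPM in BURP-19NE, 19.02, 20.3 and 54.3 CPM in BURP-16SR, and 13.1 to 80.8 CPM in Ba/Sq with a median of 27.3. All 3 subtypes overlapped, and the means of 31.7, 31.2 and 30.1 CPM lay within the spread. The log2 fold change was 0.08 ± 0.36 in BURP-19NE (adjusted p = 0.882) and 0.09 ± 0.39 in BURP-16SR (adjusted p = 0.893), and between these lines it was 0.05 ± 0.40 (adjusted p = 0.941). These p-values do not show that the subtypes are alike. Without BURP-16SR replicate 3 the last value turned to -0.62 (adjusted p = 0.0364), under a fold of 2.

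Among the Ba/Sq lines, Sox2 was highest in BURP-25BaSq at 48.9, 80.8 and 24.8 CPM. BURP-18BaSq was lowest at 13.1, 23.0 and 17.3 CPM. The F test over lines passed (adjusted p = 0.0225) and was lost without BURP-25BaSq replicate 2 (0.0635). BURP-25BaSq against the other Ba/Sq lines was at 1.02 ± 0.28 (adjusted p = 0.18), with no member called beside 0.273% of all genes. Without replicate 3, the tumor that resembles BURP-21BaSq, it was at 1.37 (adjusted p = 0.0156) and called. It was also called with all 24 tumors in 1 fit (1.04, adjusted p = 0.0382). These were the only 2 of 25 alternatives that called it, and the log2 fold change ran from 0.49 to 1.37 over them. Replicate 2, the highest tumor at 80.8 CPM, was the one with 62.8% of its counts on 2 ribosomal loci. BURP-18BaSq was at -0.85 ± 0.37 (adjusted p = 0.119).

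Sox21, the group B repressor, was found in every tumor with BURP-21BaSq at the bottom. BURP-24BaSq held 64.1, 49.5 and 66.5 CPM, BURP-19NE 55.0, 48.8 and 67.2, and BURP-12BaSq 39.3, 42.2 and 70.8. BURP-17BaSq held 29.0, 60.8 and 38.6 CPM, BURP-18BaSq 44.5, 40.7 and 37.9 and BURP-16SR 30.6, 20.0 and 33.1. BURP-25BaSq held 38.7, 11.5 and 8.55 CPM and BURP-21BaSq 14.7, 14.0 and 15.5, the narrowest spread of any line for this gene. The ranges broke between BURP-18BaSq and BURP-16SR.

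BURP-21BaSq was lower in Sox21 than the other Ba/Sq lines by -1.54 ± 0.47, which did not pass (adjusted p = 0.245) in a comparison where 0.0195% of all genes were called. It passed without BURP-25BaSq replicate 3 (-1.62, adjusted p = 0.0445), with DESeq2 (-1.54, adjusted p = 0.0213) and with all 24 tumors in 1 fit (-1.46, adjusted p = 0.0196). The F test over the 6 lines passed (adjusted p = 0.00995). BURP-19NE was at 0.59 ± 0.45 against Ba/Sq (adjusted p = 0.318) and BURP-16SR at -0.41 ± 0.50 (adjusted p = 0.59). Between them the ranges did not overlap, with BURP-16SR lower by -0.95 ± 0.22 (adjusted p = 0.0193), a fold under 2 that crossed 2 in 5 of 13 alternatives.

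Taken by line, the F test over the 6 Ba/Sq lines called 9 of 10 members where 50.5% of all genes were called. Tested one line at a time, members were called only in BURP-12BaSq (Sox11) and BURP-18BaSq (Sox5). No member was called in BURP-17BaSq (1.07% of all genes), BURP-21BaSq (0.0195%), BURP-24BaSq (1.65%) or BURP-25BaSq (0.273%) by edgeR's quasi-likelihood test. At an unadjusted p under 0.05 there were 3 of the 10 members in BURP-17BaSq (15.2% of all genes), 1 in BURP-21BaSq (10.8%), 2 in BURP-24BaSq (18.1%) and 2 in BURP-25BaSq (9.35%), and DESeq2 called 1, 1, 1 and 0. In BURP-17BaSq the third of these was Sox11, at -3.06 ± 1.42 (adjusted p = 0.312), called with all 24 tumors in 1 fit (-1.94, adjusted p = 0.0486). In BURP-25BaSq the second was Sox5, at -3.18 ± 1.44 (adjusted p = 0.513).

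BURP-18BaSq replicate 1 stood at an extreme for 5 members among the 18 Ba/Sq tumors. It held the highest Sox5 (191 CPM) and the lowest Sox2 (13.1), Sox6 (0.784), Sox9 (2.61) and Sox15 (1.18). Its endothelial sum was 56.7 CPM, beside 48.0 and 236 CPM in the other tumors of its line.

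Male and female lines were compared within Ba/Sq on counts summed over each line, 3 lines against 3. No gene of 21658 was called (0%), 1388 were at an unadjusted p under 0.05, and DESeq2 called 229, none of them a member. The study, with DESeq2, reported genes that differ between male and female Ba/Sq lines, Y-linked ones among the top. By edgeR on line sums no gene was called here, Y-linked ones included. The lack of a member call therefore does not show that the sexes are alike. Sox2 was lower in the male lines by -0.62 ± 0.24 (edgeR unadjusted p = 0.0347, adjusted p = 0.768), with all 3 male line means (17.8 to 25.1 CPM) under all 3 female ones (29.9 to 51.5 CPM, the highest being BURP-25BaSq, which was at 64.9 CPM without replicate 3). Sox5 was higher in the male lines by 2.39 ± 0.98 (unadjusted p = 0.0442, adjusted p = 0.772), with BURP-18BaSq at a mean of 106 CPM and BURP-12BaSq, also male, at 4.41 CPM. The Sox11 line means also did not overlap, with a mean of 17.1 CPM over male and 94.2 CPM over female lines. The share of all genes whose line means do not overlap between the sexes was not measured. The separation of Sox2 and Sox11 is therefore not read as a sex difference. Neither Sox2 nor Sox11 passed the adjusted threshold.

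Pairs of members were described by the Pearson correlation of log2 CPM, with no test, because tumors of a line share a donor. Over the 24 tumors the closest pairs were Sox6 and Sox15 (r = 0.802), Sox7 and Sox15 (0.773) and Sox6 and Sox7 (0.743). Within the 18 Ba/Sq tumors these were 0.453, 0.377 and 0.547. Sox11 and Sox15 went from 0.610 over all tumors to -0.186 within Ba/Sq, and Sox4 and Sox15 from -0.612 to -0.140. Several of the pooled values thus rested on the contrast of Ba/Sq with BURP-16SR and BURP-19NE.

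Other pairs were stronger within Ba/Sq. Sox5 opposed its group D partner Sox6 (r = -0.762 within Ba/Sq, -0.475 over all tumors), and also Sox2 (-0.707 and -0.628) and Sox7 (-0.670 and -0.442). Sox7 and Sox12 reached 0.690 within Ba/Sq (0.413 over all) and Sox9 and Sox15 0.675 (0.368). All of these include BURP-18BaSq, whose replicate 1 was extreme in 5 members.

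**Figure D5:**
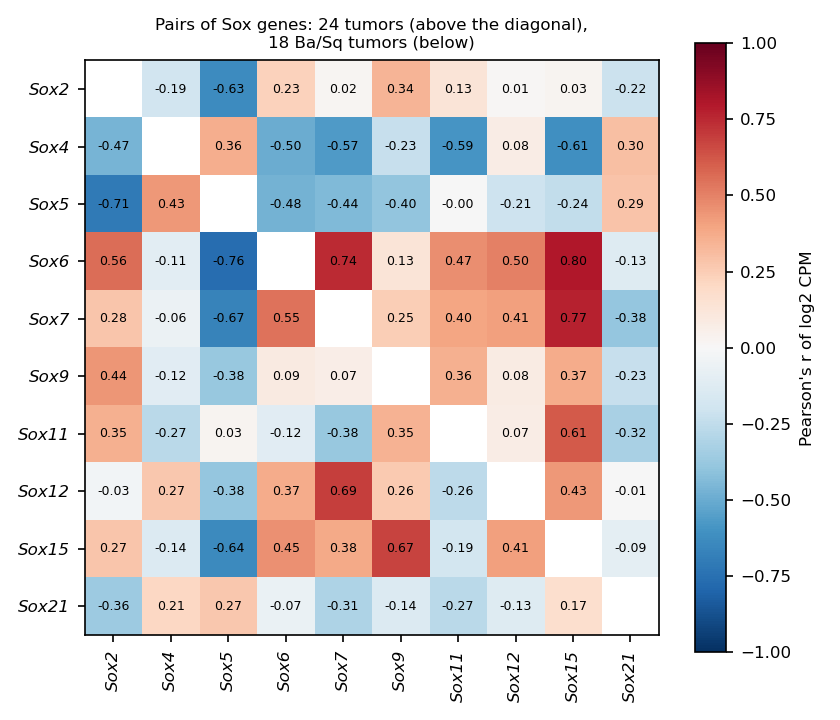
Pearson r of log2 CPM for each pair of the 10 Sox genes, over all 24 tumors above the diagonal and over the 18 Ba/Sq tumors below it, on a color scale from -1 to 1. Sox6, Sox7 and Sox15 form a positive block over all tumors (0.743 to 0.802), and Sox5 is negative with Sox2, Sox6 and Sox7 within Ba/Sq.

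The genes whose log2 CPM followed each member most closely over the 24 tumors were picked by Pearson r among 13655 genes with a mean of at least 1 CPM. For Sox15 they were Arhgef16 (r = 0.973, and 0.803 within Ba/Sq), Large2 (0.969) and Serpinb5 (0.963). For Sox6 they were Aknad1 (0.917), Krt1 (0.913), a keratin of cornifying epithelium, and Trmt9b (0.907). For Sox11 they were Aldoc (0.900), Hsd17b7 (0.899) and Ndrg2 (0.897), and for Sox7 Plagl1 (0.895), Noc2l (0.895) and Dot1l (0.894). Sox4 was followed by Pgpep1 (0.874), L3hypdh (0.860) and Ulk2 (0.853), Sox12 by Ints7 (0.867), Ahcy (0.863) and Pcgf6 (0.862), and Sox9 by Sgk1 (0.865), Manea (0.860) and Plk2 (0.844). Over the 24 tumors the likeness was looser for Sox5 (Qpctl 0.829, Ncs1 0.819, Rhou 0.819), Sox21 (Ddx17 0.803, Wdr82 0.776, Zfp664 0.761) and Sox2 (Dnah11 0.782, Rpf1 0.758, Nudt12 0.757). Within Ba/Sq the order differed. The gene named first was then at 0.885 for Sox2, 0.877 for Sox9, 0.857 for Sox21 and 0.856 for Sox5. It was at 0.852 for Sox11, 0.843 for Sox6, 0.810 for Sox12, 0.761 for Sox7 and 0.747 for Sox4. The lists change with the measure: the gene ranked first by Spearman's rho was another one for 9 of the 10 members.

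Of the 10 other Sox genes, 3 had counts enough to be tested between subtypes. Sox14 and Sry were at 0 in all 24 tumors, Sox1, Sox3, Sox8, Sox10 and Sox30 never exceeded 2.13 CPM, and Sox10, which marks Schwann and melanocytic cells, held that maximum. Sox13, the third group D gene, ran from 0.392 to 13.6 CPM. None was called in BURP-19NE against Ba/Sq. Sox17 was higher in BURP-16SR than in Ba/Sq (1.77 ± 0.60, adjusted p = 0.0329) and than in BURP-19NE (2.63 ± 0.63, adjusted p = 0.0199), and Sox18 was higher in BURP-16SR than in BURP-19NE (2.14 ± 0.40, adjusted p = 0.00888). Of the 14 endothelial markers, a list that holds Sox17 and Sox18 themselves, 13 were called higher in BURP-16SR than in BURP-19NE. The part of vessel cells in these differences was not tested.

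Sox2 works with Pou5f1 and Nanog in pluripotent cells, and 4 of a list of 13 pluripotency partners and targets could be tested. Pou5f1 was at most 0.784 CPM and Nanog at most 0.0836 CPM in any tumor. In BURP-19NE, 2 were lower than in Ba/Sq and none higher: Klf4 (-3.98 ± 0.66, adjusted p = 0.000101), also a factor of differentiating squamous cells, and Utf1 (-2.73 ± 0.99, adjusted p = 0.0375). In BURP-16SR, Lin28b (-6.63 ± 2.26, adjusted p = 0.0359) and Utf1 (-3.34 ± 1.19, adjusted p = 0.043) were lower. Utf1 did not exceed 1.38 CPM anywhere. Lin28b ran from 0 to 34.1 CPM in Ba/Sq and was at most 0.235 CPM in BURP-16SR, so the ranges overlapped. Klf4 was 54.1 to 463 CPM in Ba/Sq and 11.4 to 16.3 CPM in BURP-19NE. The median over the tested genes was -3.05 in BURP-19NE and -1.996 in BURP-16SR, beside -0.14 and -0.03 over all genes.

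Of 18 neural progenitor and neuronal genes tied to groups B and C, 9 were tested in BURP-19NE, with 3 higher and 3 lower than in Ba/Sq. The higher ones included the microtubule protein Map2 (2.17 ± 0.56, adjusted p = 0.00487) and Tead2 (2.38 ± 0.62, adjusted p = 0.00538). The lower ones were Pax6 (-5.10 ± 1.82, adjusted p = 0.0348), Stmn2 (-4.98 ± 1.79, adjusted p = 0.0357) and Tubb3, a neuronal tubulin and known Sox11 target (-3.53 ± 0.79, adjusted p = 0.00164). Tubb3 was 0.737 to 1.86 CPM in BURP-19NE and 2.86 to 37.5 CPM in Ba/Sq. Pax6 and Stmn2 ran from 0 to 17.8 and from 0 to 20.5 CPM in Ba/Sq, ranges that overlapped BURP-19NE. In BURP-16SR 8 were tested, with Nes, an intermediate filament of progenitor cells (3.21 ± 0.35, adjusted p = 6.99e-07), and Prox1 (4.33 ± 0.61, adjusted p = 2.02e-05) higher and Pax6 lower (-5.35 ± 1.92, adjusted p = 0.0454). Prox1 also marks lymphatic endothelium, and Nes is found in vessels.

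Sox9, Sox5 and Sox6 drive cartilage genes together, and 7 of 16 such genes were tested against Ba/Sq. In BURP-16SR, Acan (8.95 ± 0.53, adjusted p = 4.62e-11), Col11a1 (3.89 ± 0.85, adjusted p = 0.00199) and Comp (3.70 ± 1.18, adjusted p = 0.0257) were higher and Col9a3 was lower (-1.49 ± 0.53, adjusted p = 0.043). Acan, the main cartilage proteoglycan, was 80.995 to 161 CPM there. In BURP-19NE, Acan (4.63 ± 0.67, adjusted p = 1.82e-05), Col11a1 (4.76 ± 0.80, adjusted p = 0.00011) and Chad (1.59 ± 0.40, adjusted p = 0.00442) were higher and Matn4 was lower (-4.79 ± 1.37, adjusted p = 0.0104). Acan (0.424 to 11.9 CPM) and Chad (1.45 to 3.14) there overlapped Ba/Sq, which reached 1.14 and 2.13 CPM. Col11a1 (105 to 166 CPM) did not overlap Ba/Sq, which reached 18.6 CPM. Matn4 was near the floor, with a median of 0.297 CPM in Ba/Sq and at most 0.0526 CPM in BURP-19NE. Col2a1, the defining collagen of cartilage, never exceeded 0.561 CPM. In these lines Sox6 was low and Sox9 was not called higher. Comp was 5.14, 34.2 and 0.140 CPM in the BURP-16SR tumors. In BURP-16SR against Ba/Sq, 5 of 10 fibroblast markers were called higher and none lower (median log2 fold change 2.25), with summed levels of 631 to 20976 CPM against 241 to 10407 CPM and none at 0, and their part in the cartilage genes was not tested.

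Of 7 muscle fibre genes tied to Sox6, a repressor of the slow program in muscle, 3 were tested in BURP-19NE with none called, and 4 in BURP-16SR with 1 higher, the slow myosin Myh7 (4.26 ± 1.28, adjusted p = 0.018). Myh7 was 4.46 to 8.68 CPM in BURP-16SR. Skeletal muscle markers of the host moved widely in the same tumors, summing to 0.428 to 164 CPM in BURP-16SR and to 3.37 to 680 CPM in BURP-19NE, and their part in the Myh7 value was not tested.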

How the data were processed

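Total RNA of 24 subcutaneous BURP tumors was depleted of ribosomal RNA and sequenced. The authors deposited 1 table of estimated counts per gene, 12.451% of its values not whole, which the study made by alignment with STAR 2.6.0a to GRCm38 and gene counting with RSEM 1.3.1, and the submitters' notes also name CASAVA 1.8.2. Here the counts were rounded to whole numbers, and 99.804% of gene identifiers were matched to GENCODE M21. Groups came from the line numbers in the labels, and subtype and sex of each line from the study. Levels are TMM-scaled CPM and, for comparison between genes, RPKM over exonic length. Differences were tested in R 4.3.3 with edgeR 4.0.16 (quasi-likelihood F test, TMM, filterByExpr) in 12 comparisons, with Benjamini-Hochberg adjustment over all genes tested; a call needs an adjusted p under 0.05 and, outside the F tests over lines, a fold above 2. DESeq2 1.42.0, DESeq2 size factors, other filters, 1 fit of all tumors, the style of the sample label as a covariate and leaving out each tumor were alternatives. For the sexes, limma 3.58.1 with line as random effect and edgeR with tumors as single samples and no term for line were others. Leaving out BURP-25BaSq replicates 2 and 3 together was chosen after seeing the data. The fit was tested on simulated data, in which 200 genes changed 4-fold: 99% were recovered for BURP-19NE against Ba/Sq (20353 genes) and 91.5% for BURP-16SR against BURP-19NE (18102 genes). Apart from that change, the simulated tumors shared 1 mean per gene and 1 fixed dispersion, with no spread between lines. These shares therefore do not give the power in the real tumors. The 10 members, the lists of other Sox, pluripotency, neural, cartilage, muscle fibre and endothelial genes, and the rule that names the 3 genes most alike to each member were chosen with earlier results of these data known; 1 gene of the neural list is counted but its values are not reported here. Intervals on summed counts are exact Poisson and cover counting error only. Total counts were 9295708 to 25370320 per tumor, a floor of 0.110 to 1.28 CPM for 3 counts.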

Additional observations from a re-analysis of the deposited data

How the results depend on the processing

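Sox15 in both lines, Sox6 in BURP-16SR, Sox7 and Sox11 in BURP-19NE, Sox5 in BURP-18BaSq, and Sox9 and Sox12 between BURP-16SR and BURP-19NE kept their calls in every alternative that tested them. Line mean levels moved by less than 1 SD with DESeq2 size factors. With 1 tumor left out, 16 of 80 line means moved by over 1.5 times, led by Sox5 in BURP-25BaSq (3.07 to 0.953 CPM without replicate 3), Sox7 in BURP-17BaSq (27.8 to 8.84 CPM without replicate 2) and Sox15 in BURP-18BaSq (4.92 to 1.72 CPM without replicate 3). Of the members' fold changes and F statistics recomputed under alternatives, 1581 kept their direction and side of the threshold, 36 lost a call, 56 gained one and 20 turned sign. For single Ba/Sq lines and for the sexes this tally holds only members with an unadjusted edgeR p under 0.05 as reported. Smaller differences there are not in it. The values that turned sign were between -0.78 and 0.09 as reported. In BURP-19NE against Ba/Sq, Sox5 was at 0.31 and Sox12 at 0.061 with all 24 tumors in 1 fit, and Sox12 at 0.045 with the label style as covariate. In BURP-16SR against Ba/Sq, Sox9 was at 0.21 and 0.040 in the same alternatives. In BURP-16SR against BURP-19NE, Sox2 was at -0.015 without a filter, -0.025 with all 24 tumors and -0.57 with the label style. With 1 tumor left out, Sox2 ran from -0.076 to 0.23 in BURP-19NE, from -0.64 to 0.33 in BURP-16SR and from -0.62 to 0.27 between them, Sox12 from -0.20 to 0.012 in BURP-19NE and Sox9 from -0.30 to 0.21 in BURP-16SR.

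Requiring at least 10 counts in every sample left fewer members to test: 1 of 5 tested was called in BURP-19NE, 2 of 6 in BURP-16SR, 0 of 7 in BURP-18BaSq and 5 of 5 over the 8 lines, and 0.108% of all genes were called in BURP-25BaSq. The share of all genes called stayed within 1.5 times that reported above in BURP-19NE (24.3%), BURP-16SR (19.2%) and BURP-18BaSq (10.1%). Over the 8 lines 76.7% of all genes were called without this filter, so 5 of 5 is not read as a result about the members. DESeq2 called 1 member in BURP-17BaSq (2.92% of all genes), 5 in BURP-18BaSq, 1 in BURP-21BaSq (1.75%) and 1 in BURP-24BaSq (3.59%), with 10.6% of all genes called in BURP-12BaSq, 0.721% in BURP-25BaSq and 1.06% between the sexes. In BURP-18BaSq the DESeq2 share of all genes stayed within 1.5 times the 10.1% reported above. One fit of all 24 tumors called 4 members in BURP-12BaSq (11.1% of all genes), 3 in BURP-17BaSq (6.86%), 4 in BURP-18BaSq (15.96%), 2 in BURP-21BaSq (3.31%), 2 in BURP-24BaSq (7.86%) and 2 in BURP-25BaSq (3.03%). With no filter more genes were tested, and the share of all genes called was 14.6% in BURP-19NE, 12.5% in BURP-16SR, 14.7% between these lines, 44.2% over 8 lines, 26.3% over the 6 Ba/Sq lines, 2.14% in BURP-12BaSq, 5.91% in BURP-18BaSq, 0.0584% in BURP-21BaSq, 1.02% in BURP-24BaSq and 0.0333% between the sexes. Tumors as single samples, by edgeR with no term for line, gave 2.31% between the sexes, with tumors of 1 donor counted as independent. Without BURP-25BaSq replicates 2 and 3, chosen after seeing the data, 1 member and 0.547% of all genes were called in BURP-21BaSq and 0.507% in BURP-25BaSq. Without a filter Sox4 over the 6 Ba/Sq lines was at F = 3.51 (adjusted p = 0.0686).

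With 1 tumor left out, the members called ranged from 3 to 6 in BURP-19NE (16.2% to 25.4% of all genes), 2 to 5 in BURP-16SR (12.2% to 20.9%), 3 to 4 between these lines (15.5% to 29.7%), 9 to 10 over 8 lines (71.2% to 78.03%) and 7 to 9 over the 6 Ba/Sq lines (39.4% to 57.4%). For single lines the ranges were 0 to 1 in BURP-12BaSq (0.979% to 5.48%), 0 to 0 in BURP-17BaSq (0.254% to 1.40%), 1 to 3 in BURP-18BaSq (3.31% to 11.1%), 0 to 1 in BURP-21BaSq (0% to 0.602%), 0 to 0 in BURP-24BaSq (0.362% to 2.12%), 0 to 1 in BURP-25BaSq (0.0422% to 1.504%) and 0 to 0 between the sexes (0% to 0%). The cause of these changes was not tested. No paired analysis was possible because the labels give no replicate numbers that the lines share. Depth limited Sox15, Sox11 and Sox6 in BURP-16SR and BURP-19NE, whose tumors held 1 to 32 counts of each gene.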
